A study of Mus musculus with 6 samples.

Results

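The endothelin system was followed in mouse embryonic fibroblasts with and without Rap1, the telomere-binding protein encoded by Terf2ip. The system comprised 7 genes: the ligands Edn1, Edn2 and Edn3, the receptors Ednra and Ednrb, and the converting enzymes Ece1 and Ece2. Members were found by RefSeq accession, which matched 11 of 41174 array probes to the 7 genes (of 16535 genes with a symbol on the array). The family was chosen by a reading of knockout against wild-type values from these same arrays, so the differences given here for its members are a description and carry no test.

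RNA came from 3 samples labelled wild type and 3 labelled Rap1 knockout, and each was read in Cy3 on an Agilent mouse array of its own. All 6 samples, controls included, were fibroblasts infected with SV40 large T antigen and with Cre recombinase and grown in 2 µg/ml puromycin, and RNA integrity numbers ran from 9.3 to 10. The targeted allele lets Cre remove the third exon of Terf2ip; it was made in 129Sv/Pas embryonic stem cells, and the chimeras were mated to C57BL/6J mice. The labels do not say whether the wild-type fibroblasts carried a floxed allele, what age the embryos were, or whether replicates came from separate embryos, so any spread is that between these samples and may be technical. All endothelin values are thus from cells carrying large T antigen and Cre.

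Endothelins are short peptides cut from larger precursors, first by furin-type proteases and then by the endothelin-converting enzymes. They act on a pair of receptors coupled to G proteins: Ednra prefers endothelin-1 and endothelin-2, while Ednrb binds all the endothelins alike. Endothelin-1 is best known from blood vessels, where it constricts smooth muscle, and in fibroblasts it promotes contraction and matrix production. In the embryo Edn1 and Ednra pattern the jaw, and Edn3 and Ednrb are needed by melanocytes and enteric neurons.

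Across each array 61.6% to 67.0% of probes were well above background. Wild-type arrays 2 and 3 were near-alike, with an SD of their log2 difference of 0.25 against 0.83 to 1.25 for every other pair, so the wild-type group holds close to 2 distinct profiles. Wild-type array 1 and knockout array 1 shared slide 1, and the other 4 arrays shared slide 2. Terf2ip, the check of the labels, read −1.74 ± 0.08 in wild type and −8.37 ± 0.63 in knockout cells (SD, n = 3). These levels are on a log2 scale set to 0 at the 75th percentile of each array. The gene was among the 2 of 19652 features called by limma (adjusted p = 0.00792). Its knockout levels (−7.91, −9.08 and −8.11) lay under the lowest level well above background on their arrays (−6.79, −6.86 and −7.28). The knockout mean is thus a floor value, the gene was kept only through wild type, and its call serves only to check the labels. Fibroblast markers were well above background for 12 of 12 genes on every array except knockout array 1, with 11.

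**Figure D1:**
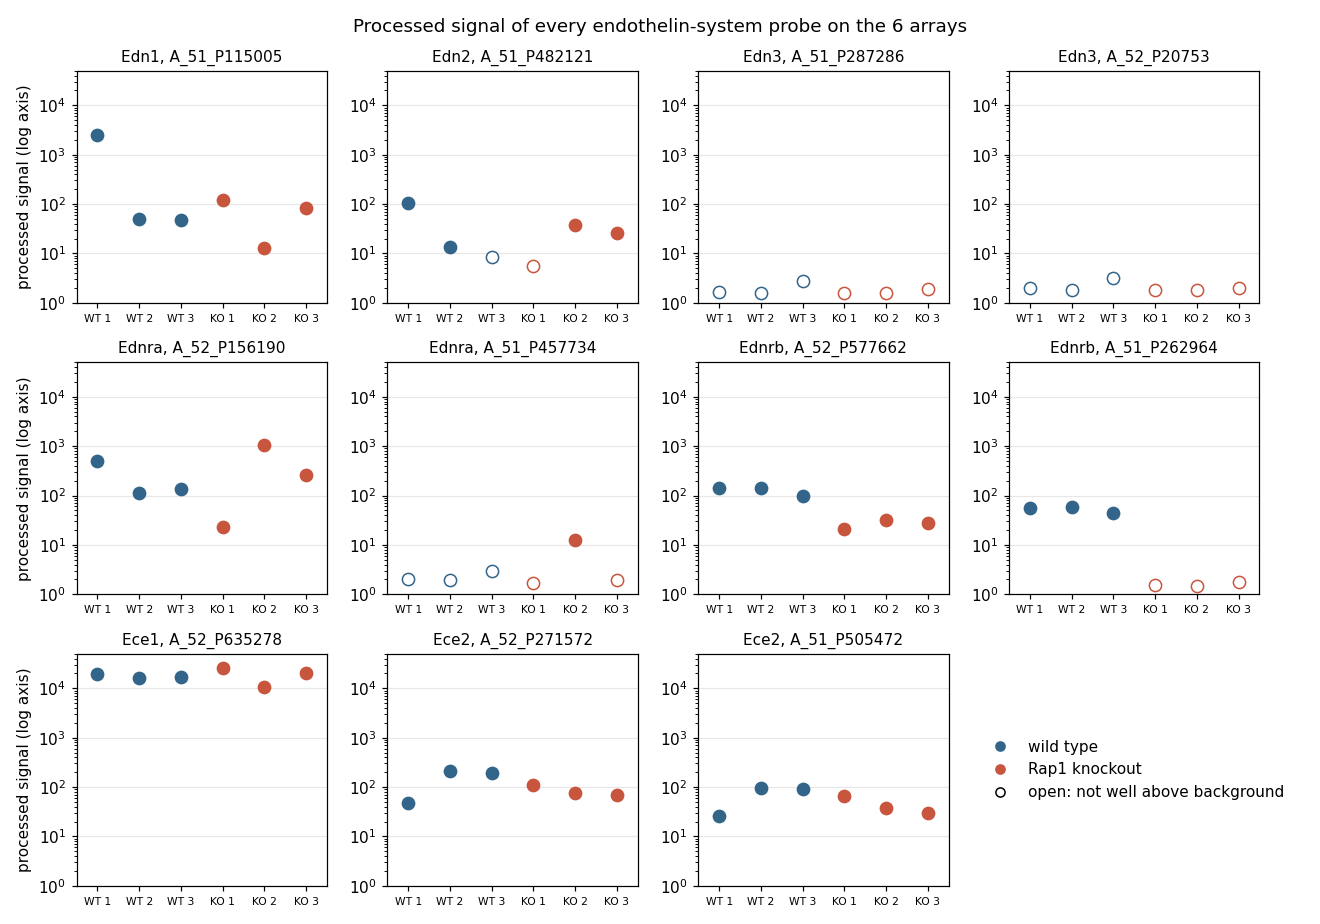
Processed signal (vertical log axis) of each of the 11 probes on the 3 wild-type (blue) and 3 knockout (red) arrays, with open circles where a probe was not well above background. Both Ednrb probes separate the groups, Edn1 stands at 2514 on wild-type array 1 and at 119 or less elsewhere, and both Edn3 probes are open on all 6 arrays.

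Of the 7 genes, 5 (Edn1, Ednra, Ednrb, Ece1 and Ece2; 7 probes) cleared background on every array of 1 or both groups and entered the fit across all features, in which the brightest such probe stands for its gene. Edn2 and Edn3 did not enter it, and their values are given as signals only. Over the 5 measured genes the median log2 difference, knockout minus wild type, was −0.44, with 3 below 0, beside a median of 0.07 and 44.6% below 0 over all features. None of the 5 was called at a limma adjusted p under 0.05, where 0.0102% of all features were. The groups did not overlap for 1 of the 5, lower in the knockout, as for 5.88% of all features, and for none higher, as for 11.3%. Since the family was chosen from this contrast, nothing is read from these counts.

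Ednrb, the receptor that binds all the endothelins, was the member whose levels separated the genotypes. Its brighter probe, A_52_P577662, read a processed signal of 143, 140.5 and 99.5 in the wild-type samples (arrays 1, 2 and 3 in turn) and 20.7, 32.5 and 27.6 in the knockout samples. All 3 knockout arrays lay below all 3 wild-type arrays, and the probe was well above background on all 6. Relative to the array's 75th percentile the log2 level was −3.12 ± 0.23 in wild type and −5.22 ± 0.48 in knockout cells (SD, n = 3), a log2 difference of −2.11 (SE 0.31), or 4.30-fold lower. The lowest wild-type array stood 1.31 log2 units above the highest knockout array, a gap reached by 74 of 19652 features (0.377%). Since the family was chosen from this contrast, that share is a description and carries no test.

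The other Ednrb probe, A_51_P262964, carries the same accession. Its processed signal was 57.2, 59.4 and 43.8 in wild type, against 1.55, 1.45 and 1.74 in the knockout. No knockout array measured it above background, so on this scale only a bound holds there. Its level was at least 6.11-fold lower in knockout cells (measured means −4.37 ± 0.18 and −9.30 ± 0.26, SD, n = 3). That bound depends on the treatment of dim signals. After normexp correction and quantile normalisation the log2 difference was −0.959, and in the value table that the authors deposited −0.963. The probe was kept only through wild type, where it is high. Its separation was thus fixed by the filter and the choice of the family. So was its call in a limma fit over all kept probes, where 0.0235% were called. Nothing is read from either. Of the 7 kept member probes the 2 for Ednrb were lower without overlap, beside 5.63% of all kept probes, a count that the same choice fixed.

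The probe measured on all 6 arrays, A_52_P577662, was lower in the knockout on both slides, with a log2 difference of −2.37 on slide 1 and −1.98 on slide 2. With wild-type arrays 2 and 3 averaged and counted as 1 it was −2.13, and against wild-type array 1 alone −2.21. The size moved with the treatment of dim signals: after normexp correction with an offset of 50 and quantile normalisation the log2 difference was −0.998. The value table that the authors deposited gave −1.01. In whole-culture RNA, fewer cells of a type and less RNA per cell cannot be told apart.

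Ednrb is also a marker of neural crest cells, melanoblasts and glia. Among the 13 other such markers on the array, Dct, Tyr, Tyrp1, Erbb3 and Ret were not well above background on any array. The list's summed level, in units of the array's 75th percentile, ran from 0.343 to 0.545 in wild type and from 0.319 to 0.680 in knockout cells, so the ranges overlapped. The part of such cells in the Ednrb difference was not tested.

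**Figure D2:**
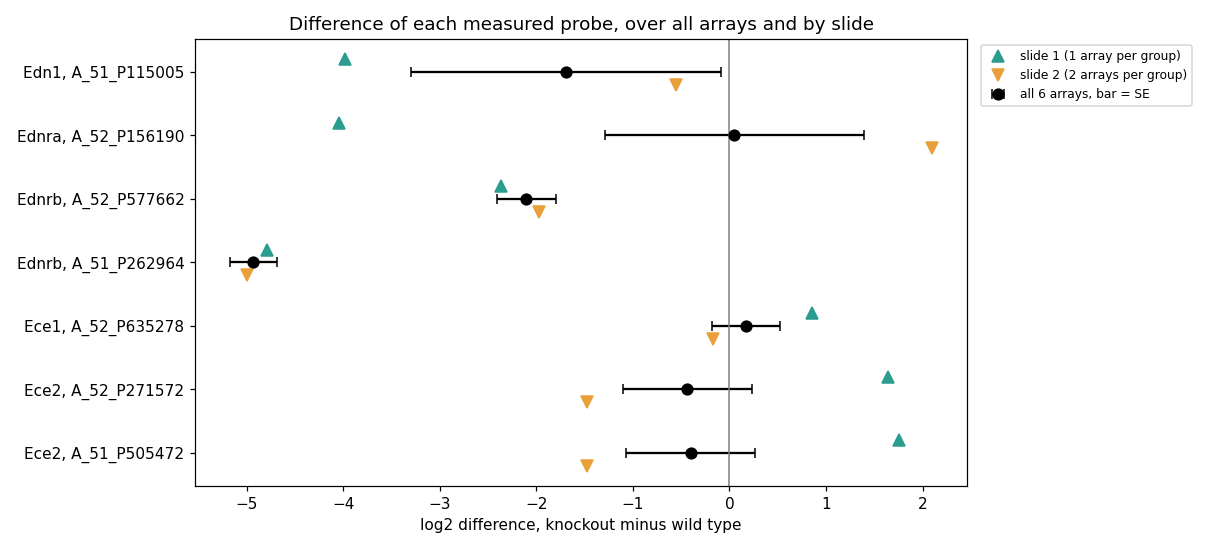
Log2 difference, knockout minus wild type, of the 7 kept probes over all 6 arrays (black, bar = SE) and within slide 1 (1 array per group, upward triangles) and slide 2 (2 arrays per group, downward triangles). Ednrb A_52_P577662 lies below 0 in each slide, A_51_P262964 has no knockout array above background so that its position is set by the floor, and Ednra runs from −4.04 on slide 1 to 2.10 on slide 2 and Ece2 from 1.64 to −1.48.

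Ednra, the receptor of vascular smooth muscle and of the jaw mesenchyme, varied widely among the knockout arrays. Its probe A_52_P156190 gave 501, 115 and 133 in wild type and 22.8, 1051 and 264 in the knockout. Knockout arrays 1 and 2 were thus the lowest and the highest of all 6, 47.6-fold apart after scaling, and the groups overlapped. The log2 level was −2.47 ± 1.11 in wild type and −2.42 ± 2.79 in knockout cells (SD, n = 3), a difference of 0.05 (SE 1.35) that was −4.04 on slide 1, 2.10 on slide 2 and −1.32 without knockout array 2. A knockout range as wide was found for 114 of 19652 features (0.580%).

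The dim Ednra probe, A_51_P457734, gave 2.07, 1.98 and 2.90 in wild type and 1.66, 12.8 and 1.97 in the knockout. It was well above background on knockout array 2 alone, the array where the brighter probe was also highest. Elsewhere it gives no order. The receptors therefore showed different patterns over the same arrays: Ednrb was low on all 3 knockout arrays, and Ednra was low on the first, high on the second and between on the third.

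Edn1, the ligand of vessels and of the jaw arches, was high on 1 array. Its probe A_51_P115005 read 2514, 49.7 and 47.2 on wild-type arrays 1, 2 and 3, and 119, 13.1 and 83.0 on knockout arrays 1, 2 and 3. Wild-type array 1 stood 15.8-fold above the next highest array and 47.7-fold above the mean of wild-type arrays 2 and 3, after scaling. A lead of wild-type array 1 as large as this was seen for 35 of 19652 features (0.178%). The other 5 arrays overlapped between genotypes, and knockout arrays differed among themselves by up to 8.83-fold after scaling.

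The Edn1 log2 level was −2.59 ± 3.22 in wild type and −4.29 ± 1.59 in knockout cells (SD, n = 3), a difference of −1.69 (SE 1.61). It was −3.98 on slide 1, −0.55 on slide 2, which lacks both first arrays, and 0.16 without wild-type array 1 alone. Markers of endothelial cells, a main source of endothelin-1, varied in different ways over the arrays. Of the 12 on the array, 8 were well above background on wild-type array 1, 6 and 4 on the other wild-type arrays and 6 to 7 in the knockout, while Pecam1, Cdh5, Tie1 and Emcn were so on none. Kdr, a VEGF receptor, read −2.31, −4.95 and −4.95 in wild type and −2.65, −5.81 and −3.82 in the knockout on the log2 scale. It was highest on wild-type array 1 and lowest on knockout array 2, as Edn1 was, and was singled out after its values were seen. Flt1 took another course, with −2.20, 0.27 and 0.48 in wild type and −3.60, −2.38 and −2.46 in the knockout. Esam was highest on knockout array 3 and Vwf on knockout array 1. The list's summed level was 2.92 on wild-type array 1, 7.53 and 7.56 on the other wild-type arrays and 3.76 to 5.41 in the knockout, and most of it was Egfl7, which read 1.27 on wild-type array 1 and 1.78 to 2.64 on the others. Smooth muscle and pericyte markers summed to 178 on wild-type array 1, against 55.2 and 62.7 on the other wild-type arrays and 40.8 to 99.7 in the knockout. Most of that sum was Acta2 and Tagln, which read 6.28 and 6.44 on wild-type array 1. These genes, Myh11 and Lmod1 were highest on that array. Cnn1, Smtn and Cspg4 were highest on knockout array 1, and Mcam was highest on knockout array 3 and lowest on wild-type array 1. The part of either cell type in the Edn1 level was not tested.

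Edn2, a ligand of gut and ovary, was dim. Its probe A_51_P482121 gave 105.4, 13.5 and 8.29 in wild type and 5.49, 37.7 and 25.5 in the knockout, and was well above background on 2 of 3 arrays of each group. Wild-type array 1 was highest, as for Edn1, and the groups overlapped. Edn3, the ligand that Ednrb needs in melanocyte and enteric development, was not well above background on any array with either probe: A_51_P287286 stayed between 1.55 and 2.83 and A_52_P20753 between 1.79 and 3.18. At this signal no difference in Edn3 was detectable.

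**Figure D3:**
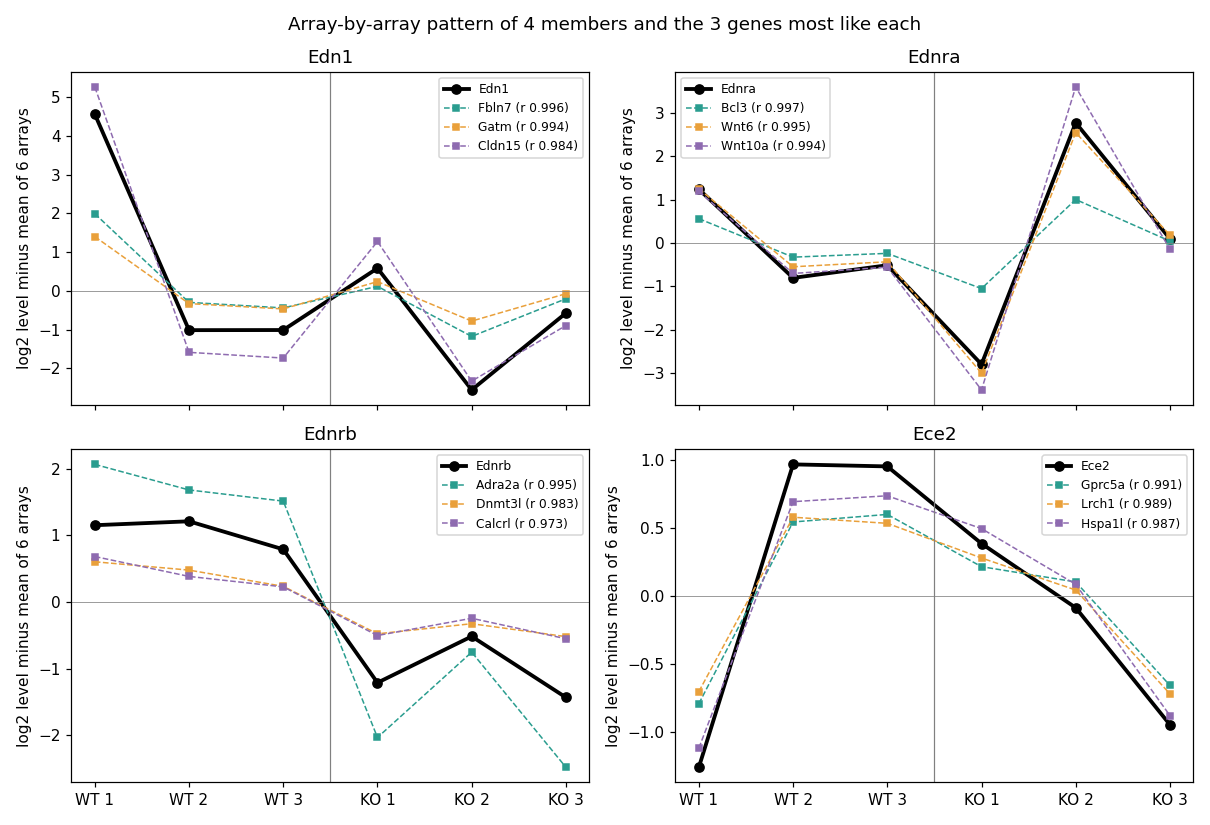
Log2 level on each array minus the mean of the 6 arrays for Edn1, Ednra, Ednrb and Ece2 (black) and for the 3 genes with the highest Pearson correlation to each (dashed, r in the key). The 4 members take 4 different courses: Edn1 peaks on wild-type array 1, Ednra on knockout array 2, Ednrb is high on all wild-type arrays, and Ece2 is lowest on wild-type array 1.

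Groups overlapped for both converting enzymes. Ece1, the main enzyme that releases the active peptide, was bright on every array: its 1 probe, A_52_P635278, read 19326, 15983 and 16890 in wild type and 26062, 10603 and 20126 in the knockout. Knockout arrays were both the highest and the lowest, so the groups overlapped. The log2 level was 3.99 ± 0.10 in wild type and 4.16 ± 0.66 in knockout cells (SD, n = 3), a difference of 0.17 (SE 0.36) that was −0.20 without knockout array 1.

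Ece2, a related enzyme active at acid pH and best known from the nervous system, was read by a pair of probes of 1 accession. A_52_P271572 gave 47.3, 209 and 196 in wild type and 111, 77.2 and 68.3 in the knockout, and A_51_P505472 gave 26.4, 96.7 and 92.7 and then 66.8, 38.2 and 30.02. On both probes wild-type arrays 2 and 3 were highest and wild-type array 1 had the lowest signal, so the groups overlapped. After scaling, knockout array 3 was lowest on A_51_P505472 (−5.48, against −5.45 on wild-type array 1). Fitted log2 differences were −0.44 (SE 0.67) and −0.40 (SE 0.67), turning from 1.64 and 1.76 on slide 1 to −1.48 on slide 2 for both. Without wild-type array 1 the groups no longer overlapped for A_52_P271572 (−1.17) or A_51_P505472 (−1.05), but wild type is then only the near-alike pair. The gene table lists Eef1akmt4-Ece2 as a synonym, and whether these probes also read that joined transcript is not known here.

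The members did not share a course over the arrays. Among all features, the SD over the 6 arrays lay at the 99.0th percentile for Edn1, the 97.6th for Ednra, the 92.4th for Ednrb, the 87.9th for Ece2 and the 52.3rd for Ece1, all without regard to genotype. Candidates for likeness were the 3631 genes well above background on all arrays with an SD of at least 0.5, compared over 6 arrays that include the near-alike pair, so high correlations come easily and are given only as a description. Ednrb was most like Adra2a, an adrenergic receptor (r = 0.995; log2 difference −3.51, SE 0.46), Dnmt3l, a cofactor of DNA methyltransferases (0.983; −0.88, SE 0.22), and Calcrl, the receptor of adrenomedullin and CGRP (0.973; −0.86, SE 0.23). Genes picked for their likeness to Ednrb share its split between the groups, so their log2 differences follow from that choice. In all, 45 candidates had an r above 0.9 with Ednrb.

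Ednra was most like Bcl3, an inhibitor-family partner of NF-kB (r = 0.997), and the Wnt ligands Wnt6 (0.995) and Wnt10a (0.994). Wnt10a ran from −2.85 on knockout array 1 to 4.14 on knockout array 2, on the log2 scale. Edn1 was most like Fbln7, a matrix fibulin (0.996), Gatm, an enzyme of creatine synthesis (0.994), and Cldn15, a tight junction claudin (0.984). Cldn15 read 1.30 on wild-type array 1 and −2.69 or less on the others, on the log2 scale. Ece2 was most like Gprc5a (0.991), Lrch1 (0.989) and Hspa1l (0.987). Ece1 had an SD of 0.43 over the arrays and was not compared.

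Promoter windows of the members were read from RefSeq (GRCm38.p6) as 250 bases before to 50 after each start site, 10 windows for the 7 genes. Each was searched on both strands for 6 motifs. TTAGGG, the telomere repeat unit to which Rap1 is recruited through its partners, was in no member window and in 10.6% of all 32851 windows. TGACTCA (AP-1, in 5.2% of all windows) and TATAAA (13.6%) were in none either. GGGCGG, the GC box (35.7%), was in 3 of the 4 Ece1 windows and in the Ece2 window. A pair of those Ece1 windows overlap and share the same matches, so they do not count apart. The Edn1 window held TTATCT, the core recognised by GATA factors (11.2%). The core of the hypoxia response element, ACGTG (19.6%), was in the windows of Edn1, Ece2 and 1 Ece1 start site, the last on both strands at overlapping bases. A match is a description of letters and not a bound site. One match each of Edn1 and Ece2, to factors whose genes are described with the pathway, is shown 5′ to 3′ on the gene's strand with the motif in capitals. The Edn1 match lies 8 bases after the start site and the Ece2 match 92 bases before it (−92).
Edn1 GATA core, chr13:42301473-42301500, plus strand: agagccgggtcTTATCTctggctgcacg
Ece2 hypoxia core, chr16:20629748-20629775, plus strand: ggttgcgcggaACGTGgtctgggcgcgg

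Other genes of the pathway were read in the same limma fit. They did not enter the choice of the family, but their lists were made with earlier results of these data known. Their counts are therefore not independent of the data. Of 118 listed genes 90 were measured, and 0 rose and 0 fell at a limma adjusted p under 0.05. A limma unadjusted p under 0.05 was reached by 13 (14.4%), beside 10.3% of all features, and the median log2 difference was −0.02. Groups did not overlap for 16 (17.8%), beside 17.2% of all features: 10 were lower in the knockout and 6 higher, where 5.88% and 11.3% of all features were.

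**Figure D4:**
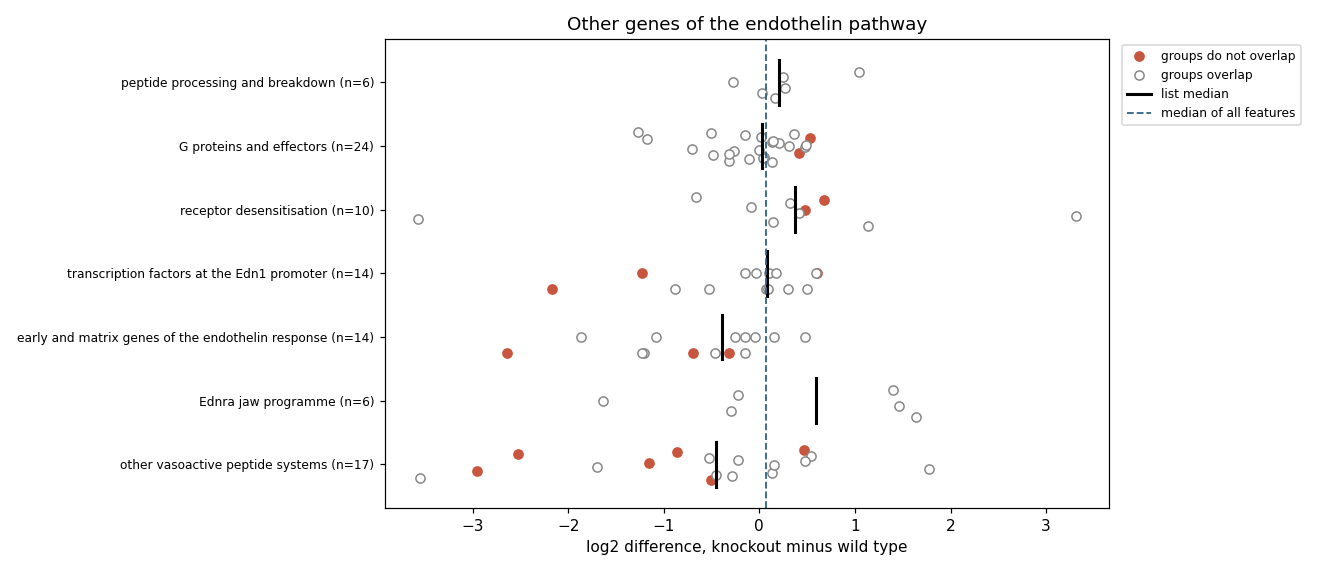
Log2 difference, knockout minus wild type, of each measured gene in 7 lists of the endothelin pathway (filled where the groups do not overlap), with list medians (bars) and the median of all features (dashed). List medians run from −0.45 for other vasoactive systems to 0.59 for the jaw programme, and no gene passed the limma threshold.

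Of 6 measured genes that process or break down the peptides, 0 passed, with a median of 0.20. Furin, which makes the first cut of the precursor, differed by 0.27 (SE 0.28), Pcsk7, a related convertase, by 1.04 (SE 0.47) and Mme, the neutral endopeptidase that degrades endothelins, by −0.28 (SE 0.34). Of 24 G proteins and effectors 0 passed, with a median of 0.03. Gnai2, an inhibitory G protein subunit, was higher without overlap (0.53, SE 0.23), Prkcd, a protein kinase C, differed by 0.49 (SE 0.25) and Rock2, a kinase of the actin cytoskeleton, by −1.18 (SE 0.60). Of 10 genes of receptor desensitisation 0 passed, with a median of 0.37. Rgs16, a brake on G protein signals, differed by −3.57 (SE 1.28), the arrestin Arrb1 by 1.14 (SE 0.47) and the receptor kinase Grk5 by 0.68 (SE 0.32, no overlap).

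Of 14 measured transcription factors known to act on the Edn1 promoter 0 passed, with a median of 0.08. Hif1a, of the hypoxia response, was lower on every knockout array (0.42, 1.53 and 1.75, against 2.20, 2.64 and 2.54 in wild type), and differed by −1.23 (SE 0.39, limma adjusted p = 0.472). Gata6 differed by −2.17 (SE 0.70, limma adjusted p = 0.475), and was highest on wild-type array 1 (3.78, against 1.27 and 1.15 on the other wild-type arrays and −0.43 to 0.20 in the knockout), the array where Edn1 was highest. Rela, an NF-kB subunit, differed by 0.60 (SE 0.24).

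Among 14 early and matrix genes that endothelin-1 is known to induce, 0 passed, 12 lay below 0 and the median was −0.39. Ccn2, a matricellular protein, had the smallest adjusted p of the pathway genes: it read 5.72, 6.47 and 6.65 in wild type and 4.22, 3.34 and 3.37 in the knockout, without overlap, and differed by −2.64 (SE 0.37, limma adjusted p = 0.150). A lower Ccn2 was already known from these arrays when the list was made. Tnc, a matrix glycoprotein, differed by −0.69 (SE 0.27) and the collagen gene Col1a2 by −1.23 (SE 0.56). Of 6 measured genes of the jaw programme downstream of Ednra 0 passed. Mef2c, a transcription factor of this programme, differed by −1.64 (SE 0.56), and Msx2 and Barx1 by 1.40 (SE 0.71) and 1.63 (SE 1.66).

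Other vasoactive peptide systems gave 0 of 17 past the threshold, 11 of them below 0, with a median of −0.45. Adm2, an adrenomedullin-family peptide, read −3.93, −2.81 and −3.09 in wild type and −6.27, −5.06 and −6.08 in the knockout (−2.53, SE 0.44, limma adjusted p = 0.216). Calcrl, the receptor of that family, read −2.36, −2.65 and −2.81 in wild type and −3.54, −3.28 and −3.59 in the knockout (−0.86, SE 0.23, limma adjusted p = 0.419), and Nppb, a natriuretic peptide, differed by −1.16 (SE 0.37). Groups did not overlap for 5 of the 17 lower in the knockout (these 3, Ace and Kng1) and for 1 higher (Npr2), beside 5.88% and 11.3% of all features.

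**Figure D5:**
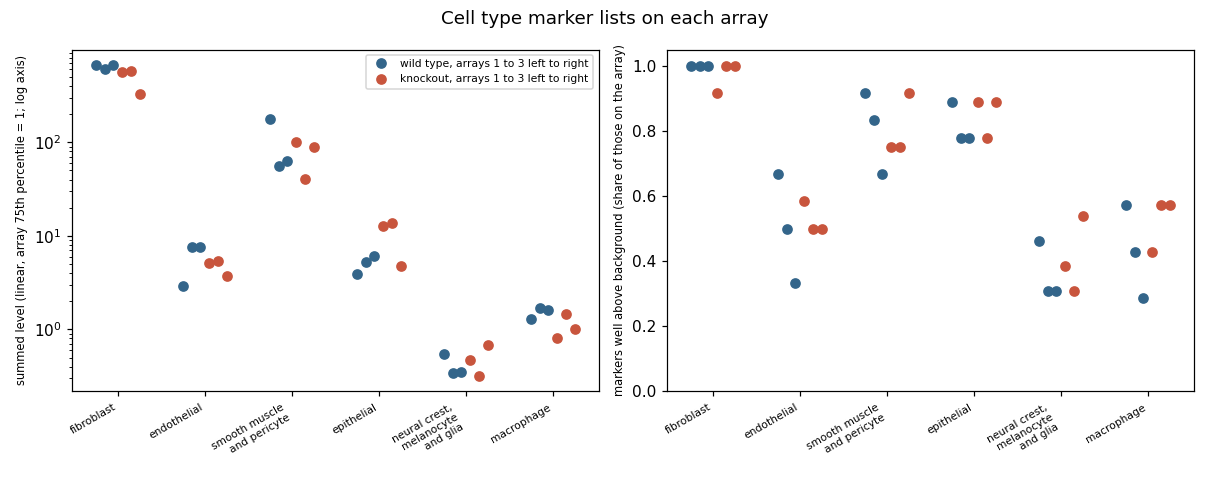
Summed level of each cell type's marker genes on each array (left, log axis, in units of the array's 75th percentile) and share of the markers well above background (right), wild type in blue and knockout in red, arrays 1 to 3 from left to right. Fibroblast markers sum to 329 or more on all 6 arrays and neural crest markers to 0.680 or less.

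Marker lists gave the frame for these levels. Fibroblast markers summed to between 612 and 669 in wild type and between 329 and 575 in knockout cells, in units of the array's 75th percentile. The sums did not overlap and knockout array 3 was lowest. Such a sum mostly reflects the brightest genes: of the 12 markers, 8 differences lay below 0 and 4 above. Dcn, Lum, Pdgfra and Thy1 were lowest on knockout array 1, where Dcn read −5.47 against 2.19 or more on the other arrays. Col1a1, Col3a1, Pdgfrb, S100a4 and Fbn1 were lowest on knockout array 3, Col1a2 and Fn1 on knockout array 2, and Vim on wild-type array 1. Epithelial markers summed to 3.89 to 6.14 in wild type and 4.80 to 13.6 in the knockout. Macrophage markers summed to 1.29 to 1.70 and 0.803 to 1.46, with Ptprc, Adgre1 and Itgam not well above background on any array. The part of these shifts in the levels of the endothelin genes was not tested.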

How the data were processed

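Scanner output is intensity on a linear scale, and per the file headers came from Feature Extraction 10.5.1.1, whose processed signal is background-corrected within the array but not scaled between arrays. The deposited value table holds log2 values from the authors; the submitters' processing notes name limma, and the steps taken are not given in the sources used here. Its columns had medians of 6.86 to 6.87 and matched normexp and quantile-normalised scanner signals (normexp on median spot and background signals, offset 50; r = 0.99999 per column after rounding), but knockout columns 1, 2 and 3 matched scanner files 2, 3 and 1. Array numbers here are those of the scanner files.

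Control and outlier spots were left out (74 to 120 outliers per array); no spot was saturated. Levels are log2 processed signal minus each array's 75th percentile. Probes flagged well above background by the scanner software throughout 1 or both groups were kept (25513), named by RefSeq accession from GRCm38.p6; the files name mm8, so probe coordinates were not used. Of 41174 probes 23374 matched. Limma 3.58.1 in R 4.3.3 (lmFit, eBayes, 2-sided, Benjamini-Hochberg 0.05) was fitted over all 19652 features, without a block, and was tried on simulated data. Where a group never cleared background, the fold is a bound: the bright group's mean over the dim group's mean floor, each array's floor being the lowest level of any probe well above background there (or the probe's own level, if higher). The number of arrays limits the precision.

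Members and gene lists were chosen with earlier results of these data known. Named genes were all members, in each list those past the threshold or the 3 of smallest p, the 3 genes most like each member, and Terf2ip. Same-numbered arrays did not deviate together (correlations 0.01, 0.05 and −0.08). Alternatives were other background corrections and scalings, the value table, filters, probe averaging, a trended robust variance, blocks, the near-alike arrays averaged, and each array left out. The values of 1 listed marker gene are not reported here.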

Additional observations from a re-analysis of the deposited data

How the results depend on the processing

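Across its 19 alternatives the Ednrb difference stayed negative, between −3.52 (probes averaged, with 1 below background in every knockout array) and −0.998, and ran from −2.37 to −1.92 without single arrays. Without single arrays Edn1 ran from −2.62 to 0.16 (the latter without wild-type array 1), Ednra from −1.32 to 1.46 and Ece1 from −0.20 to 0.42. Ednra turned to −0.27 with wild-type arrays 2 and 3 averaged, −4.04 on slide 1, and −0.34, −0.19 and −1.32 when wild-type array 2, wild-type array 3 or knockout array 2 was dropped. Ece1 turned to −0.0067 after quantile normalisation, −0.17 on slide 2 and −0.20 without knockout array 1, and Ece2 to 1.64 on slide 1. The median of the members was −2.37 on slide 1, and without single arrays ran from −0.84 to 0.16. Members without overlap numbered 3 on slide 2, and 1 to 2 without single arrays. Slide 2 holds 2 arrays per group, its wild type being the near-alike pair, and fewer arrays separate more easily. The share of all features without overlap was not counted at these settings, so nothing is read from these counts. Features past the limma threshold numbered 0 over probes above background on all arrays (1778 at an unadjusted p under 0.05), 4 with probes averaged, 0 with the slide as a block (3482), 0 with wild-type arrays 2 and 3 averaged (690) and 0 to 64 without single arrays. The replicate block gave 0 features (2353 unadjusted) and 4 probes past the limma threshold; the numbers gave no sign of pairing. The 64 came without wild-type array 1, where the near-alike arrays are the only wild type. Pathway genes past the threshold were 0 under all settings run. Probes past it numbered 4 to 8 under scaling, block and averaging alternatives chosen after seeing the data and 3 to 76 without single arrays. The dim Ednrb probe was among them except after normexp correction and in the value table. It was kept only through wild type, so its calls were fixed by the filter and the choice of the family. Nothing is read from them. Array median scaling moved the median of all features from 0.07 to 0.17, and no filter moved it to −0.08. The causes of these changes were not tested. Signal over background limits Edn2, Edn3, the dim Ednra probe and Ednrb in knockout cells.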
